A study of Mus musculus with 12 samples.

Results

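The response of liver macrophages to diethylnitrosamine (DEN), a carcinogen that hepatocytes activate, was set against the response of liver sinusoidal endothelial cells (SEC). For each gene the change in macrophages (DEN minus untreated) was taken first, and the change in SEC (DEN minus untreated) was subtracted from it. The comparison set against each other 8 of the 12 arrays of the series, 2 in each of 4 groups. The full fit held all 12 arrays, so the hepatocyte arrays also entered the spread behind each SE and p-value. Tested were all 12473 genes measured above background in any group of the series, hepatocytes included. A filter on the 4 groups alone left 11767 genes. In the text "the difference" means this subtraction of one change from the other, on the log2 scale, so a positive value means a higher DEN response in macrophages and a negative value a lower one.

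The 4 groups were macrophages of DEN-treated mice, macrophages of untreated mice, SEC of DEN-treated mice and SEC of untreated mice. All mice were wild-type C57Bl/6 males. The treated ones received 25 mg/kg DEN by intraperitoneal injection at postnatal day 25, and their tumours were followed for the next 9 months. The untreated mice were of matching age. Each RNA sample of the DEN groups combined 3 to 4 animals. The sources used here do not give the way the cells were isolated, or the part of the liver. Total RNA was hybridised to Illumina mouse bead arrays, and levels are the deposited log2 values.

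Kupffer cells, the resident macrophages of the liver, sit in the sinusoids and take up particles, bacteria and ageing red cells through complement, scavenger and lectin receptors. Their identity is kept by transcription factors such as LXRalpha (Nr1h3), Id3 and SpiC, which depend on signals from the neighbouring endothelial and stellate cells. When Kupffer cells are lost or displaced, blood monocytes enter the liver and can become macrophages there. SEC line the sinusoids with a perforated sheet, clear waste from blood through the stabilin and mannose receptors, and secrete factors such as Wnt2 that act on hepatocytes.

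On each of the 8 arrays 20142 to 21552 probes lay above background, a threshold set from probes of odour and pheromone receptors. Replicates of a group correlated with r of 0.997 to 0.998 over probes, and the differences between them had an SD of 0.0966 in DEN macrophages, 0.0735 in untreated macrophages, 0.0746 in DEN SEC and 0.0742 in untreated SEC. In the hepatocyte groups, which also entered the full fit, this SD was larger, 0.1719 with DEN and 0.1381 without. The SEs and p-values of that fit thus rest partly on the spread of hepatocyte arrays. The number of arrays limits the precision: the median SE of the difference was 0.09. Nothing in the labels says that a group's 2 arrays stem from different pools of mice. The p-values therefore speak only to array-to-array spread, possibly a technical one. Values on every array ended at 15.19, so changes of very abundant transcripts can be cut short.

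Macrophages changed far more than SEC. In macrophages 823 genes moved at least 2-fold between DEN and untreated mice, against 86 in SEC, and the SD of the change over all genes was 0.58 in macrophages and 0.21 in SEC. By limma with Benjamini-Hochberg adjustment over all genes, 5353 genes passed an adjusted p of 0.05 in macrophages (42.9% of those tested), 2323 of them higher (18.6%) and 3030 lower (24.3%) with DEN. With cyclic loess normalization the balance turned, to 2721 higher and 2524 lower. In SEC 443 genes passed (3.55%), 319 higher (2.56%) and 124 lower (0.994%). Without any one of the 4 SEC arrays the lower calls in SEC were 46 to 56 and the higher ones 229 to 238. At least 2-fold changes that passed in SEC were 85 rises (0.681%) and 1 fall (0.00802%). The difference itself passed for 4111 genes (33.0%), with 1911 above 0 (15.3%) and 2200 below 0 (17.6%). Of these, 372 were at least 2-fold above 0 (2.98%) and 500 at least 2-fold below (4.01%). The counts for gene lists below are to be read beside these shares of all genes.

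Most of these differences came from genes that passed in macrophages and not in SEC. There were 1758 such genes that rose in macrophages and 1897 that fell in macrophages, 42.8% and 46.1% of all genes passing the difference. A further 141 genes passed in both cell types in opposite directions, of which 22 rose in macrophages and fell in SEC and 119 fell in macrophages and rose in SEC. In 50 genes both cell types rose and macrophages rose more, and in 19 both rose and SEC rose more. The numbers called depend on the arrays in the fit. With only the 8 arrays 5214 genes passed the difference, 6466 passed in macrophages and 840 in SEC (474 higher, 366 lower). The opposite changes were then 249, of which 75 rose and 174 fell in macrophages. Leaving out 1 array took the genes that rose in macrophages and fell in SEC to between 8 and 19.

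**Figure D1:**
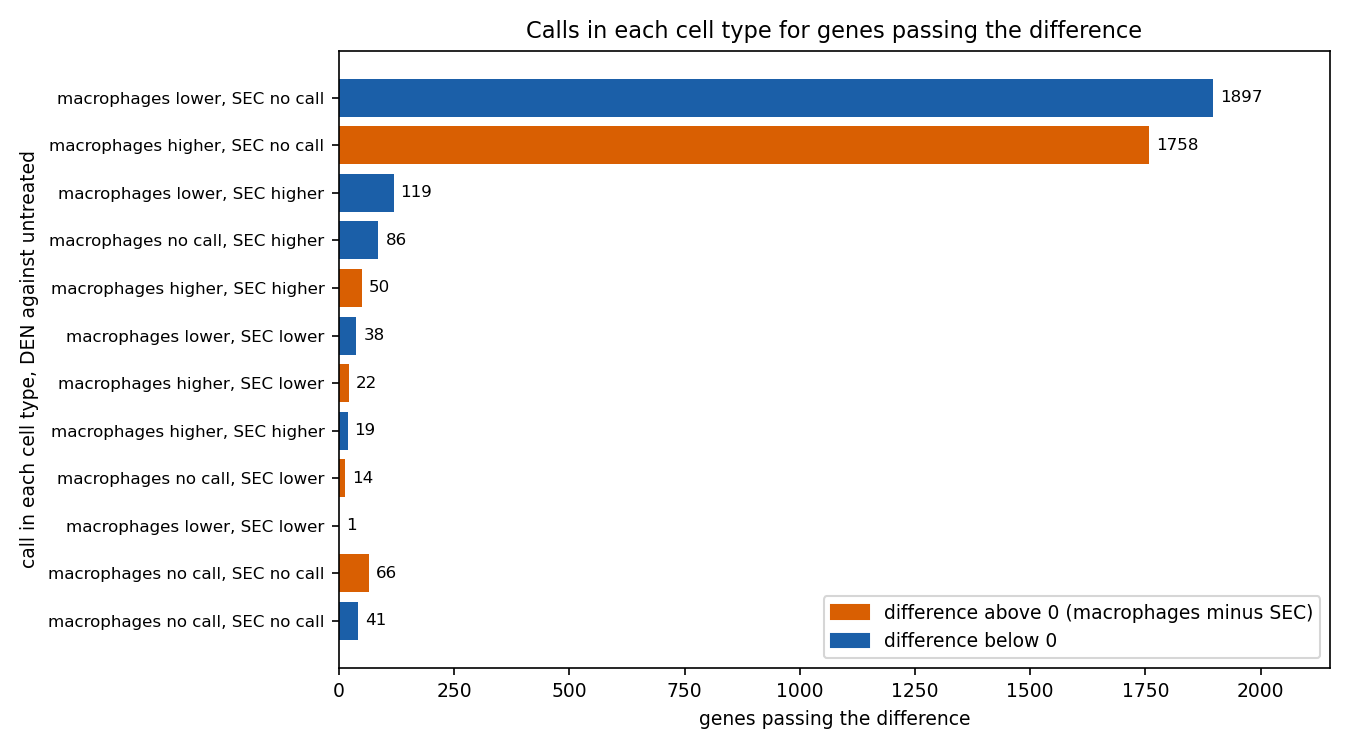
Bars give the number of genes that passed the difference, split by whether the gene passed, and in which direction, between DEN and untreated mice in macrophages and in SEC. Orange bars are differences above 0 and blue bars below 0. The longest bars, 1897 and 1758 genes, are those with a call in macrophages and none in SEC.

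The changes in the 2 cell types were weakly related. Across the 12473 genes the changes in the 2 cell types had a correlation of 0.126, given as a description because genes of one array are not independent. The 359 genes that rose at least 2-fold in macrophages (2.88%) had a median change of 0.03 in SEC, where 55 of them rose and 1 fell. The 464 that fell at least 2-fold in macrophages (3.72%) had a median change of -0.08 in SEC, where 26 rose and 20 fell.

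**Figure D2:**
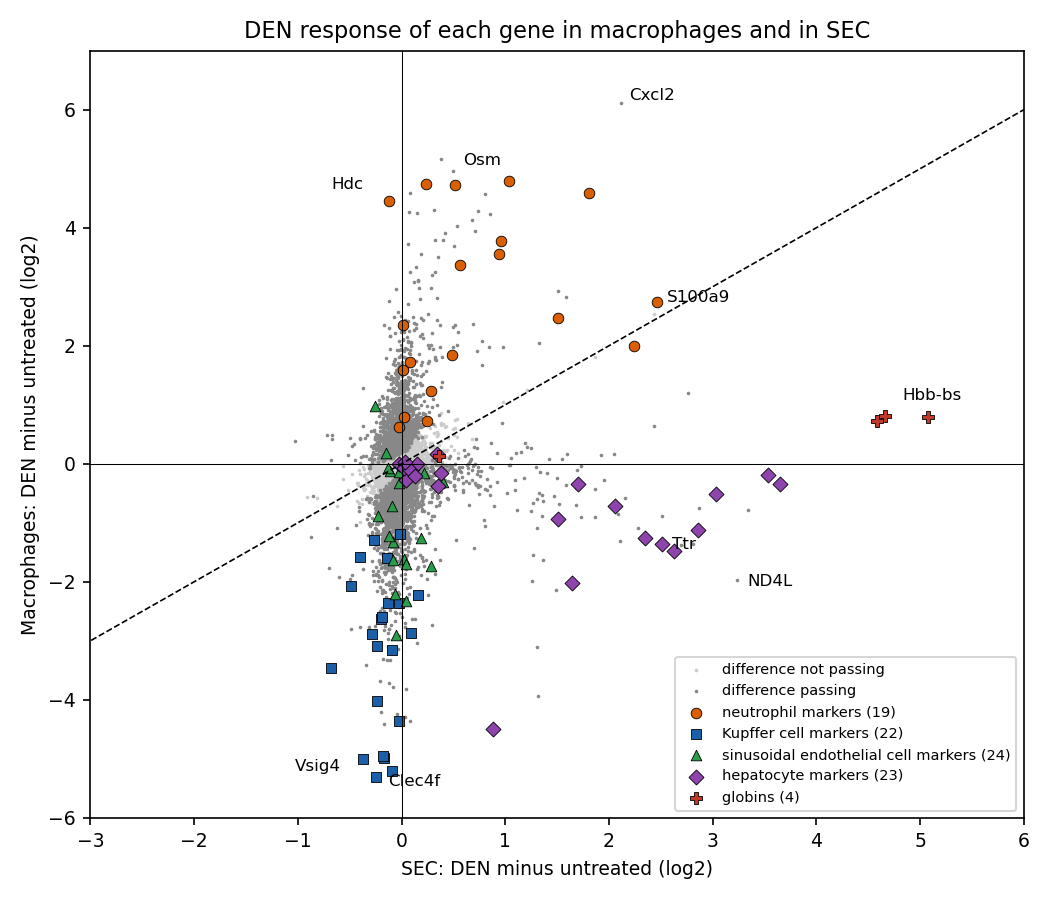
Each point is a gene, placed by its DEN minus untreated change in SEC (x axis, log2) and in macrophages (y axis, log2). Grey shades give whether the difference passed, symbols give 4 marker lists and the globins, and the dashed line marks equal changes. Kupffer cell markers lie low near the vertical axis, neutrophil markers high, and hepatocyte markers and globins to the right.

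Markers of resident macrophages fell in macrophages and changed little in SEC preparations. All 22 measured Kupffer cell markers passed the difference below 0, with a median of -2.70 beside -0.01 for all genes. All 22 fell in macrophages, whereas 3 fell and 19 had no call in SEC, where the median change was -0.19. Clec4f, the lectin that marks Kupffer cells in mice, read 8.96 and 9.07 in DEN macrophages, against 14.27 and 14.39 in untreated macrophages. In DEN SEC preparations it read 13.16 and 13.13, against 13.44 and 13.35 in untreated SEC preparations. Both DEN macrophage arrays thus stood far below all other arrays, and the difference was -5.07 ± 0.09 (SE, adjusted p = 7.15e-11).

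The haemoglobin scavenger receptor Cd163 had the largest difference of the list, -5.12 ± 0.16 (adjusted p = 2.05e-09). It read 8.17 and 8.50 in DEN macrophages and 13.62 and 13.48 in untreated macrophages, against 11.63 and 11.54 in DEN SEC and 11.81 and 11.55 in untreated SEC. Its DEN and untreated values overlapped in SEC and lay far apart in macrophages. The complement receptor Vsig4 read 10.14 and 10.15 in DEN macrophages and 15.11 and 15.19 in untreated macrophages, at or near the top of the scale. In SEC it read 13.87 and 13.80 with DEN and 14.18 and 14.24 without, a fall of 0.37 that passed (adjusted p = 0.00293). Its difference of -4.63 ± 0.08 can be limited by the ceiling of the arrays. The folate receptor Folr2 (-4.82 ± 0.09), the complement component C6 (-4.76 ± 0.14) and Timd4, a receptor for dying cells (-4.34 ± 0.11), fell by nearly as much.

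These falls turned the order of the preparations round. Of the 22 Kupffer cell markers 20 were higher in SEC than in macrophages after DEN and none was higher in macrophages. In untreated mice 19 were higher in macrophages and 1 in SEC. In 17 of the 22 both calls passed and pointed opposite ways, a pattern that 421 of all 12473 genes showed. The median gap, macrophages minus SEC, was -1.66 after DEN and 0.99 in untreated mice. The log2 of the summed linear levels of the list was 15.02 to 15.06 in DEN macrophages and 18.00 in untreated macrophages, and 16.90 in DEN SEC and 17.11 to 17.16 in untreated SEC. Cd5l, a further member of the list, was not above background in any group and was not tested. Each of the 22 measured markers was above background on 1 or more arrays of both SEC groups, so the SEC preparations hold Kupffer cell transcripts. Whether macrophages or endothelium carry them there was not tested. In bulk RNA, fewer cells of a type and less RNA per cell cannot be told apart.

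**Figure D3:**
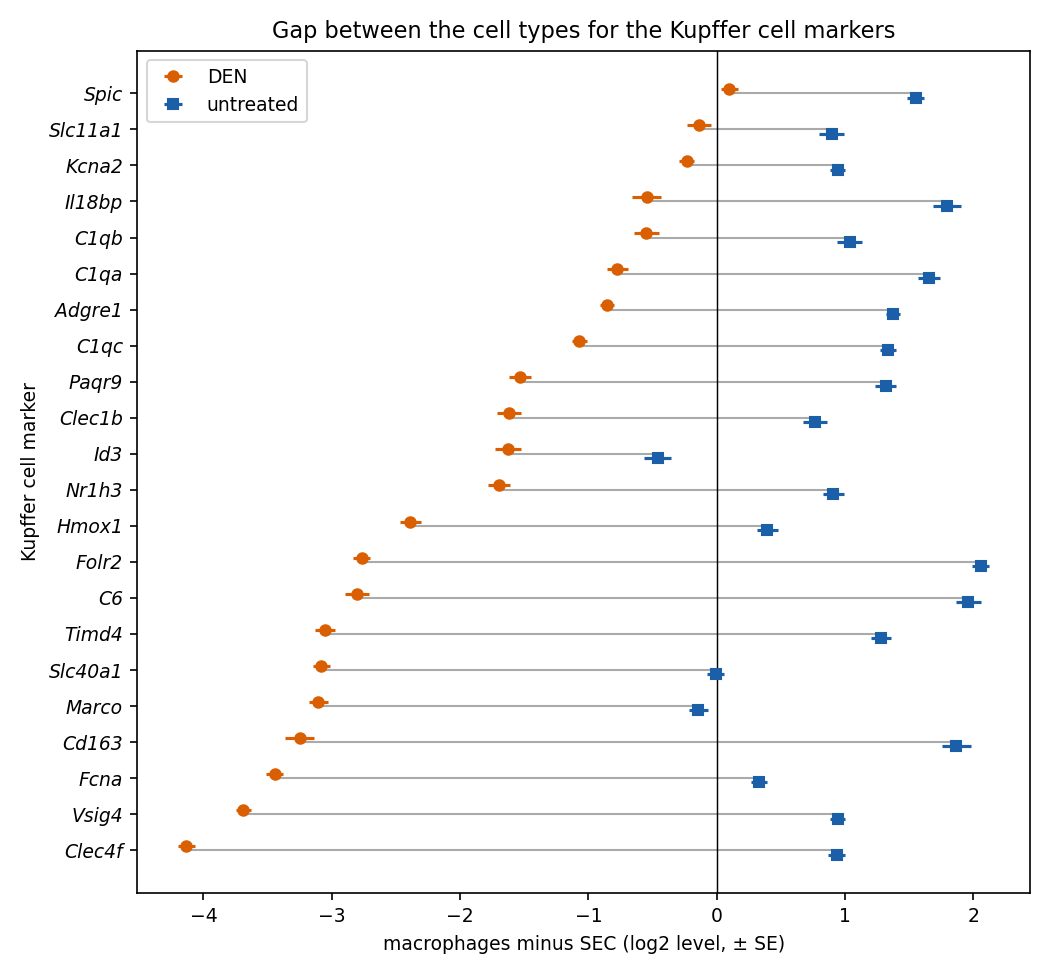
For each of the 22 Kupffer cell markers the log2 level in macrophages minus that in SEC is shown in DEN mice (orange circles) and in untreated mice (blue squares), with SE as horizontal bars. After DEN the median gap is -1.66, and in untreated mice 0.99.

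Most measured members of a list of Kupffer cell transcription factors and niche signals fell in macrophages too. Of its 22 genes 13 passed the difference below 0 and 1 above. In untreated mice 15 of the 22 were higher in SEC and 5 in macrophages. The count is thus not one of Kupffer cell genes alone. Csf1r, the receptor for the growth factor that macrophages need, read 11.37 and 11.65 in DEN macrophages and 14.37 and 14.28 in untreated macrophages, against 12.21 and 12.32 in DEN SEC and 12.53 and 12.33 in untreated SEC. Its groups were separate in both cell types, yet only the macrophage change passed (-2.81, adjusted p = 1.27e-09), and the difference was -2.65 ± 0.13. Nr1h3 had a difference of -2.61 ± 0.12, Spic of -1.45 ± 0.09 and Id3 of -1.17 ± 0.15 (adjusted p = 9.38e-05). The single member above 0 was Csf1, a ligand of Csf1r, which rose by 1.15 in macrophages.

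Of 19 complement and phagocytic receptor genes 13 passed below 0 and 4 above (median -1.61), and of 22 scavenger and lectin receptors 14 passed below and 2 above (median -0.72). The complement protease C2 read 7.87 and 7.72 in DEN macrophages and 11.62 and 11.61 in untreated macrophages, against 10.30 and 10.17 in DEN SEC and 10.19 and 10.18 in untreated SEC. Only the macrophage groups were far apart, with a difference of -3.87 ± 0.11. Of 24 iron and haem genes 13 passed below 0, 1 above and 10 did not pass. This list also moved in SEC, where 5 rose and 1 fell. The iron exporter ferroportin, Slc40a1, had a difference of -3.07 ± 0.09, with 11.63 and 11.66 in DEN macrophages and 14.89 and 14.72 in untreated macrophages, against 14.69 and 14.76 in DEN SEC and 14.84 and 14.79 in untreated SEC. Haem oxygenase, Hmox1, fell in both cell types, by 3.46 in macrophages and by 0.68 in SEC, and its difference of -2.78 ± 0.12 also passed.

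Among all genes, lipid carriers and prostaglandin enzymes stood beside these markers. Apoc1, an apolipoprotein that macrophages also make, had a difference of -4.43 ± 0.16 and read 10.45 and 10.43 in DEN macrophages, against 14.75 and 14.84 in untreated macrophages. Its SEC values of 12.90 and 12.95 with DEN and 12.83 and 12.87 without had no call. Hpgd, which breaks down prostaglandins, had a difference of -3.46 ± 0.14, and Tbxas1, the thromboxane synthase, of -1.81 ± 0.08. Ptgs2, the inducible cyclooxygenase, went the other way. It rose at least 3.05-fold in macrophages, and it was not well above background in untreated macrophages or untreated SEC. Of the 14 measured eicosanoid genes 5 passed above 0 and 6 below.

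Several inflammatory mediators rose more in macrophages than in SEC, while their lists were mixed. Of 11 interleukin-1 system genes 4 passed above 0 and 5 below (median -0.02), and of 24 endotoxin and pattern recognition genes 6 passed each way. Among all genes 15.3% passed above 0 and 17.6% below. The neutrophil-attracting chemokine Cxcl2 had the largest rise of any gene in macrophages. It read 13.94 and 13.83 in DEN macrophages and 7.72 and 7.82 in untreated macrophages, against 9.52 and 9.61 in DEN SEC and 7.45 and 7.44 in untreated SEC. The DEN arrays lay above the untreated ones in both cell types. The change was 6.12 in macrophages (adjusted p = 4.95e-13) and 2.12 in SEC (adjusted p = 2.43e-09), and the difference of 4.00 ± 0.08 passed (adjusted p = 1.16e-10). The 250 bases before its RefSeq start are shown because Cxcl2 leads the rise and holds the motif searched. Capitals mark matches to a form of the NF-kB site, GGG and TTTCC separated by any 2 bases, searched on both strands. The window is GRCm38.p6 chr5:90903649-90903898, plus strand.
Cxcl2: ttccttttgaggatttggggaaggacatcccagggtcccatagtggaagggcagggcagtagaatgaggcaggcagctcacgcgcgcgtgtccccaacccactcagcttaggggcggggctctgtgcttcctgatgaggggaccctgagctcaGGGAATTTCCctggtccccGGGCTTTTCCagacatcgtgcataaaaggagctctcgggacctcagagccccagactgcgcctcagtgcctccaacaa
The 2 matches begin 97 and 78 bases before the start. In windows of 300 bases around the start, the motif was found in 438 of 27025 RefSeq promoters (1.62%). Among genes tested it was in 11 of the 291 promoters of genes with a difference of at least 2-fold above 0 (3.78%), in 6 of 383 below 0 (1.57%) and in 163 of 10037 in all (1.62%). The 11 include Cxcl1, Ccl9, Nfkbia, Tnfaip3 and Cd9. A match is a description of letters and not of binding.

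Saa3, an acute-phase protein that macrophages make, had the largest positive difference, 4.80 ± 0.08 (27.8-fold, adjusted p = 5.73e-11). It read 12.84 and 12.74 in DEN macrophages and 7.64 and 7.59 in untreated macrophages, against 7.89 and 7.85 in DEN SEC and 7.50 and 7.48 in untreated SEC. Osm, which encodes the cytokine oncostatin M, read 12.65 and 12.56 in DEN macrophages and 7.63 and 7.65 in untreated macrophages, against 7.997 and 7.972 in DEN SEC and 7.47 and 7.50 in untreated SEC. The difference of Osm was 4.46 ± 0.08. For both genes the DEN arrays were higher in both cell types, by under 1 log2 unit in SEC and by about 5 in macrophages.

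Interleukin-1 beta, Il1b, rose by 2.93 in macrophages and by 1.51 in SEC, with a difference of 1.42 ± 0.14 (adjusted p = 1.71e-05). With background subtracted this difference was 0.91 and did not pass. Tnf rose by 2.24 in macrophages, and in SEC it read 7.62 and 7.60 with DEN and 7.69 and 7.54 without, which overlap. Its difference was 2.25 ± 0.09. Il6 read 7.61 and 7.73 in DEN macrophages and 7.73 and 7.73 in untreated macrophages, against 7.52 and 7.54 in DEN SEC and 7.49 and 7.55 in untreated SEC. The groups of Il6 overlapped, and the 95% interval of its difference ran from -0.23 to 0.10. Of 25 TNF and NF-kB genes 18 passed above 0 and 2 below (median 0.69). They included Acod1, which makes the antibacterial metabolite itaconate (3.45 ± 0.10), Nfkbiz (2.70 ± 0.12) and the inhibitor Tnfaip3 (2.26 ± 0.10).

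Chemokines of both kinds went both ways. Of 16 CC chemokines 10 passed above 0 and 3 below. Ccl3, which attracts monocytes and T cells, rose by 4.23 in macrophages and by 0.85 in SEC (difference 3.38 ± 0.09), and Ccl4 rose by 3.69 and 0.50 (3.19 ± 0.08). Ccl24, which attracts eosinophils, fell by 3.14 in macrophages and had no call in SEC (-3.03 ± 0.08). Of 10 CXC chemokines 4 passed above 0 and 3 below. Cxcl12, which holds leukocytes and progenitors in tissues, read 7.57 and 7.51 in DEN macrophages and 10.80 and 10.92 in untreated macrophages, against 12.05 and 12.14 in DEN SEC and 12.20 and 12.22 in untreated SEC. Its difference was -3.21 ± 0.14 and rested on macrophages. Of 15 chemokine receptors 11 passed above 0 and 1 below, led by Ccrl2, a chemerin-binding receptor (3.66 ± 0.10), and Cxcr4, the receptor for Cxcl12 (2.94 ± 0.13).

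Markers of blood leukocytes rose in the macrophage preparations and much less in SEC. Of 19 neutrophil markers 17 passed above 0 and none below, with a median of 1.65. All 19 rose in macrophages and 10 rose in SEC. Retnlg, a resistin-like protein of neutrophils, read 13.064 and 13.002 in DEN macrophages and 8.23 and 8.24 in untreated macrophages, against 8.67 and 8.71 in DEN SEC and 7.63 and 7.67 in untreated SEC. All groups were separate, and the difference was 3.76 ± 0.08. Il1r2, the decoy receptor for interleukin-1, had a difference of 4.20 ± 0.13 and G0s2, an inhibitor of triglyceride breakdown, of 4.51 ± 0.14. The log2 of the summed levels of the neutrophil list was 16.26 to 16.46 in DEN macrophages and 13.48 in untreated macrophages, and 14.19 to 14.21 in DEN SEC and 13.28 to 13.31 in untreated SEC. The granule genes Mpo, Elane, Prtn3, Mmp8 and Stfa2 were not well above background in untreated macrophages.

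Hdc, which makes histamine, differed in its starting level. It read 13.19 and 13.19 in DEN macrophages and 8.71 and 8.76 in untreated macrophages, against 12.18 and 12.21 in DEN SEC and 12.35 and 12.29 in untreated SEC. SEC preparations thus held high levels with and without DEN, and macrophages reached them only with DEN. The difference was 4.58 ± 0.07 (adjusted p = 5.73e-11). Of 13 mast cell and basophil markers, a list that also holds Hdc, 11 passed above 0, and none passed in SEC. The mast cell protease Cma2 read 12.03 and 11.89 in DEN macrophages. It was not well above background on either untreated macrophage array, which gives a rise of at least 23.1-fold. It was also below background on both untreated SEC arrays, so no fold of its difference is given. Tpsb2, the mast cell tryptase, rose at least 3.58-fold in macrophages and was below background in both SEC groups. Mcpt4, a mast cell chymase, read 11.75 and 11.53 in DEN macrophages and was below background in both SEC groups. Cpa3, the mast cell carboxypeptidase, read 11.79 and 11.57 in DEN macrophages and 7.43 and 7.41 in untreated macrophages.

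Lymphocyte markers rose in the macrophage preparations too. Of 13 T and NK cell markers 10 passed above 0 and none below (median 1.34), and of 8 B and plasma cell markers 7 passed above 0 (median 0.89). Cd8b1, a chain of the CD8 co-receptor, read 12.63 and 12.59 in DEN macrophages and 9.87 and 9.83 in untreated macrophages, against 7.95 and 7.98 in DEN SEC and 8.11 and 8.06 in untreated SEC. Its difference was 2.88 ± 0.07. The macrophage preparations therefore held T cell transcripts in untreated mice too. The log2 summed level of the T and NK list was 15.86 to 15.91 in DEN macrophages and 14.10 to 14.14 in untreated macrophages, and 12.21 to 12.23 in DEN SEC and 12.06 to 12.09 in untreated SEC. Cd4 and Ncr1 were not well above background in SEC. The plasma cell gene Mzb1 had a difference of 2.29 ± 0.14.

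Of 13 markers of monocytes and monocyte-derived macrophages 11 passed above 0 and 1, the lysozyme gene Lyz2, below (median 1.30). Gpnmb, a glycoprotein of lipid-laden macrophages, read 12.50 and 12.44 in DEN macrophages and 8.20 and 8.13 in untreated macrophages, against 8.33 and 8.34 in DEN SEC and 8.08 and 7.97 in untreated SEC. Its DEN arrays lay above the untreated ones in both cell types, and the difference was 3.99 ± 0.09. The list of lipid-associated macrophage and lysosome genes, which holds Gpnmb, had 6 of 25 above 0 and 11 below (median -0.27). The chitinase-like protein Chil3 had a difference of 3.49 ± 0.08. The monocyte receptors Ccr2 (0.81 ± 0.07) and Cx3cr1 (1.37 ± 0.07) rose in macrophages and had no call in SEC. How much of the inflammatory changes above belongs to neutrophils, mast cells, lymphocytes or monocytes in the preparations was not tested.

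Immediate early and some heat shock genes rose in macrophages, and endoplasmic reticulum stress genes went both ways. Of 27 AP-1 and immediate early genes 22 passed above 0 and none below (median 1.01), among them Gadd45b, a stress sensor (3.16 ± 0.06), and the repressor Atf3 (2.62 ± 0.06). Of 17 heat shock genes 9 passed above 0 and 2 below, and of 23 endoplasmic reticulum stress genes 7 passed above and 5 below (median -0.02). The shares of all genes were 15.3% above 0 and 17.6% below. Hspa1a, the inducible HSP70, read 12.52 and 12.63 in DEN macrophages and 8.03 and 7.98 in untreated macrophages, against 8.64 and 8.71 in DEN SEC and 7.84 and 7.91 in untreated SEC. Its neighbour Hspa1b read 11.77 and 11.83 in DEN macrophages and 7.53 and 7.51 in untreated macrophages, against 8.25 and 8.36 in DEN SEC and 7.57 and 7.57 in untreated SEC. Both rose in both cell types, and their differences were 3.77 ± 0.08 and 3.55 ± 0.07. The genes are near-identical copies, so their probes may share signal. Their promoters are shown because the 2 genes move together. Capitals mark matches to GAANNTTC, the core of the heat shock element, which reads the same on both strands. The windows are GRCm38.p6 chr17:34972157-34972406 for Hspa1a and chr17:34959239-34959488 for Hspa1b, both on the minus strand and from RefSeq.
Hspa1a: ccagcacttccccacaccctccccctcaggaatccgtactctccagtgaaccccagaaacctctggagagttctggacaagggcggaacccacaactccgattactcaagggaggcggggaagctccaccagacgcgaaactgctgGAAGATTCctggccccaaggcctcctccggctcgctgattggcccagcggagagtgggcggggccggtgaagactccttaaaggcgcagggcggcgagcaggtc
Hspa1b: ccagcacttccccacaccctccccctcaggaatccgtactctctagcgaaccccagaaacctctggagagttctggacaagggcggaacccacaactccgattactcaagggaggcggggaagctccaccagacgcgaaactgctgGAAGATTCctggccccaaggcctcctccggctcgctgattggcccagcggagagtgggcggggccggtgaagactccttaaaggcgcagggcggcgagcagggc
The windows share the base at 247 of 250 positions, and in both the match begins 104 bases before the start. In 300-base windows the motif was found in 2149 of 27025 promoters (7.95%). Among genes tested it was in 21 of 291 promoters of genes at least 2-fold above 0 (7.22%), in 17 of 383 below 0 (4.44%) and in 599 of 10037 in all (5.97%). The co-chaperone Dnajb1 rose by 1.82 in macrophages and had no call in SEC. Hspa5, the chaperone of the endoplasmic reticulum, rose by 0.64 in SEC and had no call in macrophages, and its difference was -0.71.

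**Figure D4:**
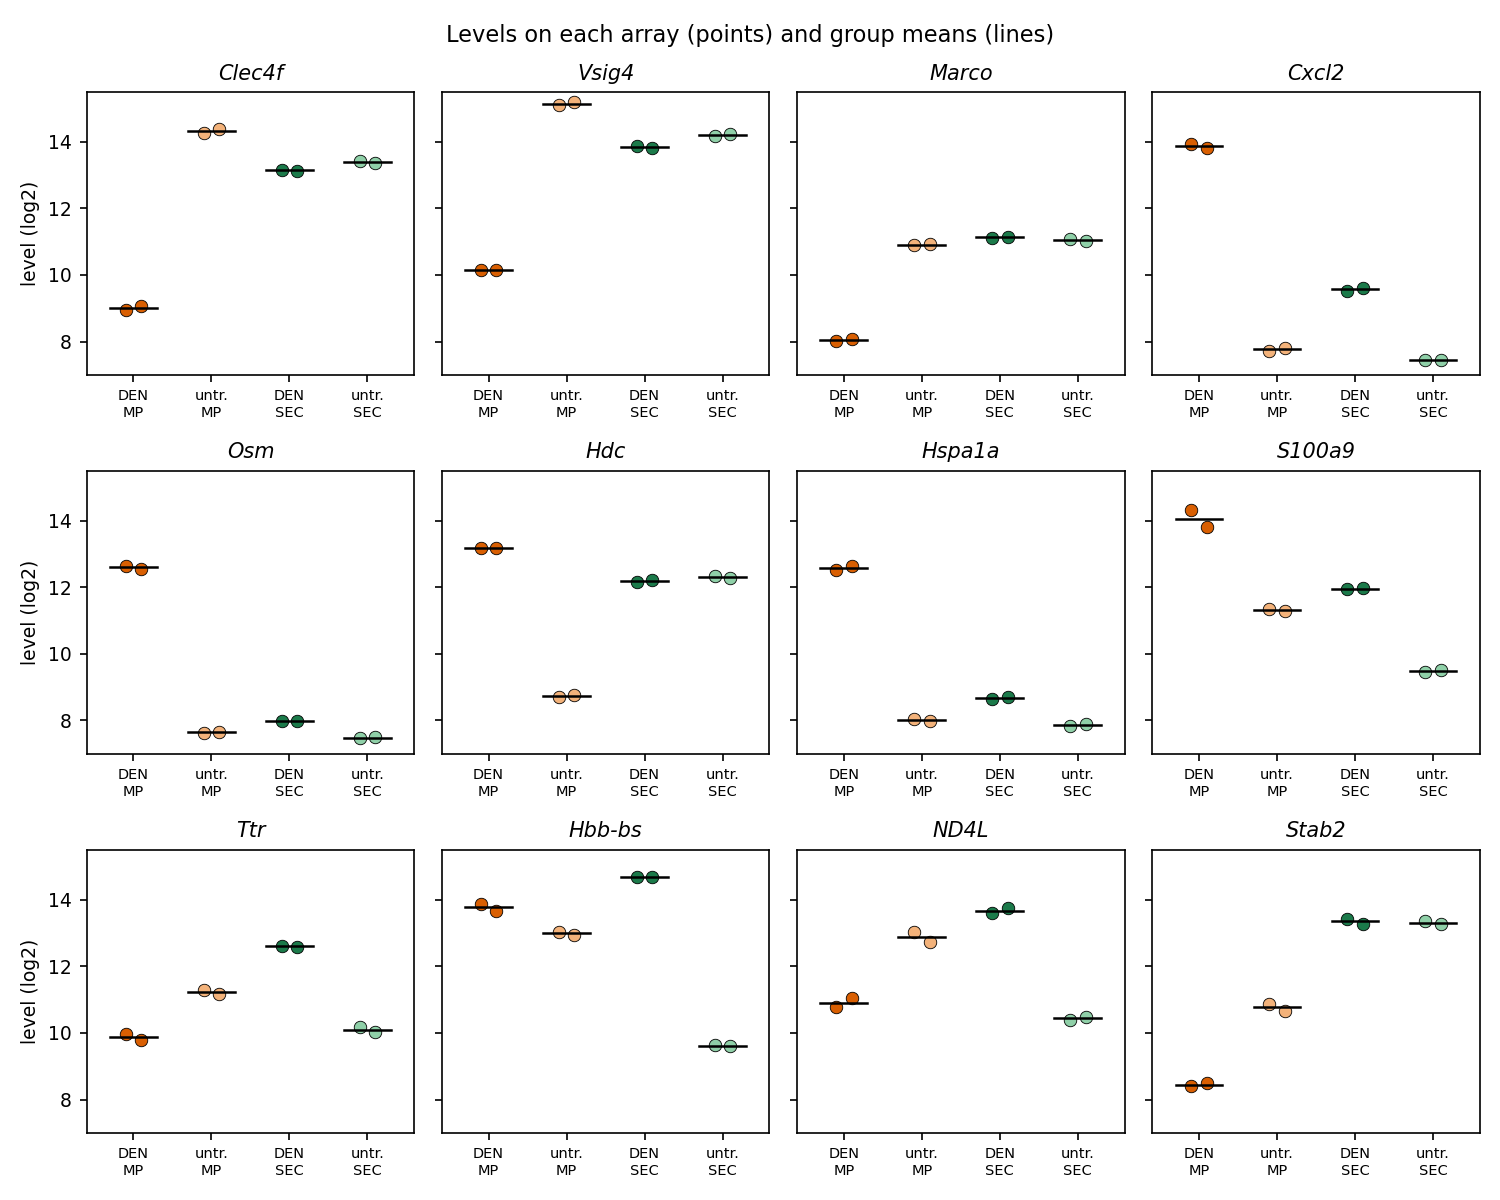
Log2 levels of 12 genes are shown on each array (points) with group means (lines), in the order DEN macrophages, untreated macrophages, DEN SEC and untreated SEC (MP, macrophages). For Cxcl2 both DEN macrophage arrays reach at least 13.83, and for Clec4f both stay at or below 9.07.

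Growth and metabolism genes shifted by less. Of 32 ribosomal protein genes 22 passed above 0 and 2 below (median 0.46), and 24 rose in macrophages. Rps19 read 14.43 and 14.49 in DEN macrophages and 13.74 and 13.75 in untreated macrophages, against 13.51 and 13.52 in DEN SEC and 13.72 and 13.67 in untreated SEC. Only the macrophage change passed, and the difference was 0.89 ± 0.08. Of 28 cell cycle genes 8 passed above 0 and 1 below, led by the cell cycle inhibitor Cdkn1a (1.68 ± 0.09), which is also a p53 target. Of 21 p53 targets 9 passed above 0 and 4 below. Of 23 glycolysis and hypoxia targets 11 passed above 0, 4 below and 8 did not pass, with differences from -1.715 to 1.757. The glucose transporters Slc2a3 (1.69 ± 0.10) and Slc2a1 (1.29 ± 0.08) and the growth factor Vegfa (1.76 ± 0.08) were among genes that passed above 0. Of 31 oxidative phosphorylation genes 9 passed below 0 and 1 above, led by Cox5a (-1.22 ± 0.10). Of 25 NRF2 and glutathione genes 15 passed below 0 and 3 above, although Nfe2l2, which encodes NRF2 itself, had a positive difference of 1.04.

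Interferon and antigen presentation genes were mixed. Of 33 interferon-stimulated genes 10 passed below 0 and 4 above, beside 17.6% and 15.3% of all genes. None passed in SEC, where 3.55% of all genes did. Gbp2b, a guanylate-binding protein, read 8.01 and 8.11 in DEN macrophages and 12.49 and 12.46 in untreated macrophages, against 9.03 and 9.00 in DEN SEC and 9.14 and 9.23 in untreated SEC. The difference of -4.25 ± 0.09 was the largest of the list. Isg15, a ubiquitin-like protein, had a positive difference of 0.98. Of 16 MHC class II genes 5 passed above 0 and 5 below: H2-Ob, a modulator of peptide loading in B cells, had 1.75 ± 0.09 and the costimulator Cd86 had -1.42 ± 0.10. Of 10 Fc receptors 4 passed above 0 and 6 below, and the IgE receptor chain Fcer1a (2.35 ± 0.09) led those above.

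**Figure D5:**
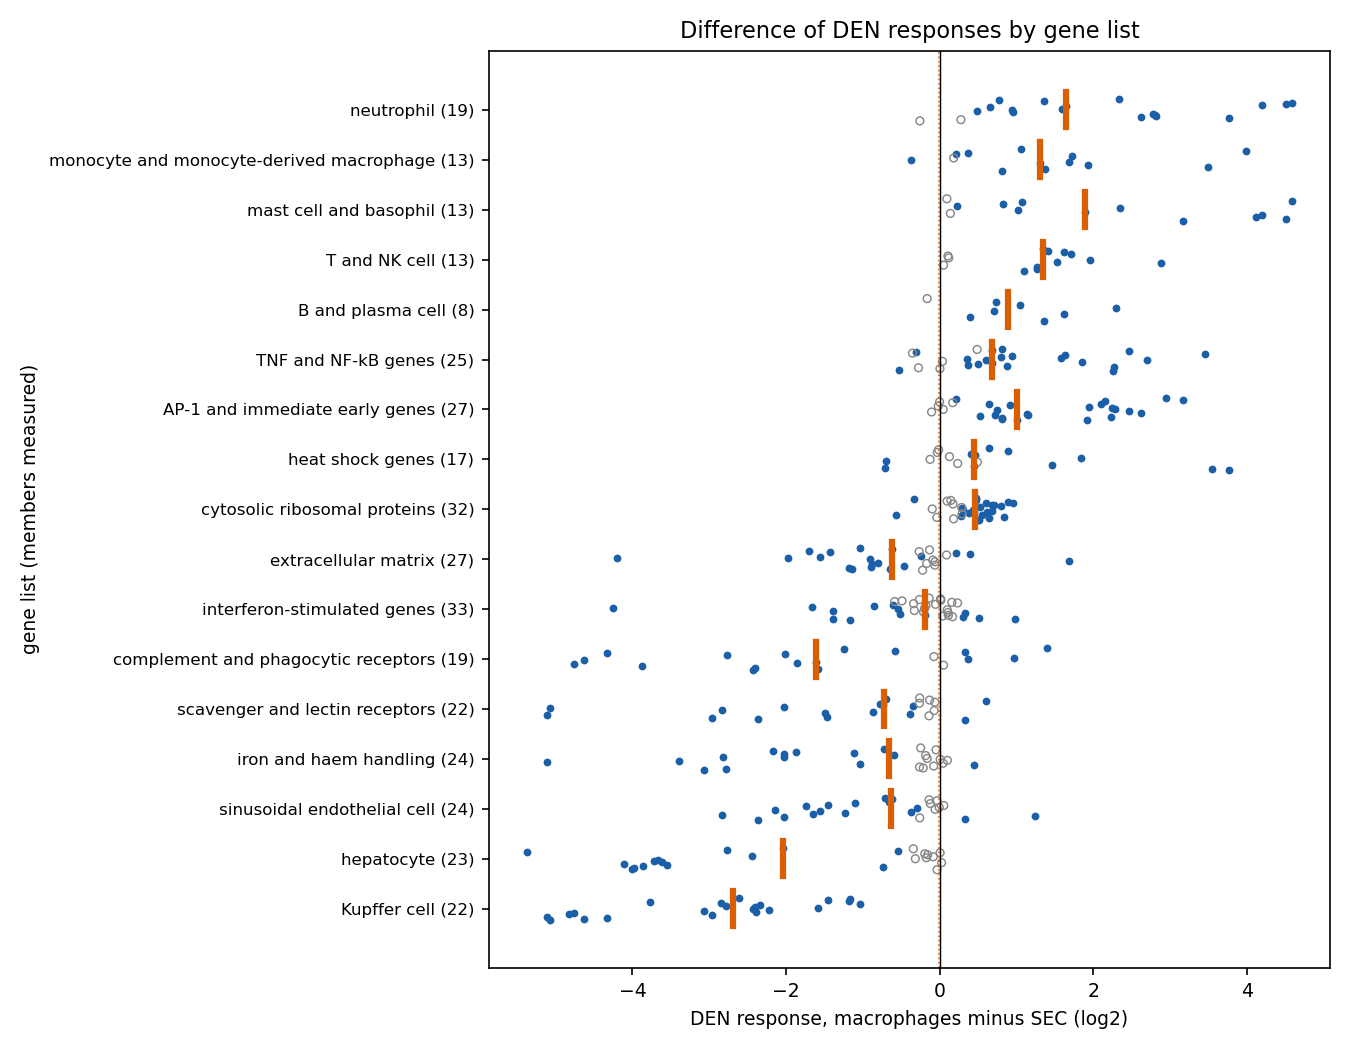
For 17 gene lists each point is a measured member, placed by the difference of DEN responses (macrophages minus SEC, log2). Filled points passed and open points did not, thick orange bars are list medians, and the dotted line is the median of all genes. The median is -2.70 for Kupffer cell markers and 1.65 for neutrophil markers. Mast cell and basophil markers are drawn at fitted values, although 9 of the 13 were not well above background in untreated SEC and 6 in untreated macrophages.

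Hepatocyte transcripts moved in opposite directions. Of 23 measured hepatocyte markers 14 passed below 0 and none above (median -2.04). In macrophages 12 fell, and in SEC 13 rose. Ttr, the carrier of thyroxine and retinol, read 9.97 and 9.80 in DEN macrophages and 11.29 and 11.18 in untreated macrophages, against 12.62 and 12.60 in DEN SEC and 10.17 and 10.03 in untreated SEC. It fell by 1.35 in macrophages and rose by 2.51 in SEC, a difference of -3.86 ± 0.10 (adjusted p = 4.58e-10). The apolipoprotein Apoa1 rose by 3.65 in SEC and fell by 0.35 in macrophages (-4.00 ± 0.17).

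The protease inhibitors Serpina1b (-4.07 ± 0.14), Serpina1c (-4.11 ± 0.12) and Serpina1d (-4.16 ± 0.14) and the iron carrier Trf (-3.67 ± 0.14) moved likewise. The major urinary protein Mup2 had the largest difference of all named genes, -5.37 ± 0.11. It read 8.97 and 9.16 in DEN macrophages and 13.59 and 13.52 in untreated macrophages, against 14.25 and 14.43 in DEN SEC and 13.46 and 13.47 in untreated SEC. Only the DEN macrophages were low. Mup6 had -5.25 ± 0.13 and Mup3 -4.41 ± 0.08. The Mup and Serpina1 families hold near-identical copies, so single members are uncertain.

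The summed hepatocyte marker level is taken over the same marker list and is no separate check. Its log2 was 13.41 to 13.48 in DEN macrophages and 15.03 to 15.14 in untreated macrophages, and 16.02 to 16.08 in DEN SEC and 14.35 to 14.37 in untreated SEC. Alb, Fgb and Tat were not well above background in any of the 4 groups. Of the 119 genes that fell in macrophages and rose in SEC, 94 (79.0%) had their highest level in untreated hepatocytes, against 32.3% of all genes. Of the 85 genes that rose at least 2-fold in SEC 66 had. All 4028 genes highest in untreated hepatocytes and the globins were then left out, and the other 8441 genes kept their calls from the full fit. Among them 249 passed in SEC (140 higher, 109 lower), against 443 of all 12473. Opposite changes then numbered 46, with 21 rising and 25 falling in macrophages, and the difference passed for 1725 genes above 0 and 1600 below. The part of hepatocyte RNA in the SEC changes was not tested. Among liver-made proteins outside the marker list, the iron hormone Hamp and the haem carrier Hpx also moved oppositely, with differences of -2.82 ± 0.08 and -3.40 ± 0.16.

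Globin transcripts rose in both preparations and far more in SEC. Hbb-bs, a beta globin, read 13.88 and 13.68 in DEN macrophages and 13.04 and 12.94 in untreated macrophages, against 14.70 and 14.70 in DEN SEC and 9.64 and 9.60 in untreated SEC. Untreated SEC stood lowest by more than 3 log2 units. The change was 0.79 in macrophages and 5.08 in SEC, and the difference was -4.29 ± 0.19 (adjusted p = 2.61e-08). Hba-a1 (-3.87 ± 0.14) and Hbb-bt (-3.84 ± 0.13) were similar, and probes of the globin copies may share signal. The red cell genes Alas2, which starts haem synthesis, and Slc4a1, the anion exchanger, were below background in untreated SEC and rose there at least 1.78-fold and 1.30-fold. Of 11 erythroid and platelet genes 8 rose in macrophages and 6 in SEC. The difference passed below 0 for 4, above 0 for 2 and not for 5. The 4 include the globins named above, so Alas2 and Slc4a1 did not both pass below 0. The platelet chemokine Pf4 did the reverse, rising by 1.62 in macrophages with no call in SEC.

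Of 8 measured mitochondrially encoded genes, ND4L, ATP6 and COX2 passed below 0 and ND4 above, and the other 4 did not pass. ATP6 and COX2 are named after their values were seen. ND4L read 10.78 and 11.06 in DEN macrophages and 13.03 and 12.74 in untreated macrophages, against 13.61 and 13.75 in DEN SEC and 10.39 and 10.49 in untreated SEC. The difference was -5.21 ± 0.27 (adjusted p = 9.31e-08). ND4, which encodes another subunit of the same respiratory complex, read 14.71 and 14.83 in DEN macrophages and 14.26 and 14.32 in untreated macrophages, against 14.38 and 14.30 in DEN SEC and 15.04 and 14.98 in untreated SEC. Its difference was 1.15 ± 0.09, of opposite sign, and its values lie near the ceiling of the arrays. Both results rest on the probe that stood for each gene. Whether these probes report separate transcripts or their levels was not tested. A further group of genes rose in macrophages and fell in SEC by smaller amounts: the elongation factor Eef2 (1.01 ± 0.10), the trafficking GTPase Rab1a (1.42 ± 0.15), the kinase Prkd3 (1.09 ± 0.10) and the Wnt pathway scaffold Axin1 (0.83 ± 0.11). The other probes of Rab1a and Axin1 and 1 of 2 other Prkd3 probes made no call, and Rab1a lost its call with background subtracted.

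Most SEC markers held their level in SEC and fell in the macrophage preparations. Of 24 SEC markers 15 passed below 0 and 2 above (median -0.64). In SEC 3 of them rose, none fell and the median change was -0.03, while in macrophages 15 fell and 1 rose. The scavenger receptor Stab2 read 8.39 and 8.50 in DEN macrophages and 10.87 and 10.66 in untreated macrophages, against 13.44 and 13.29 in DEN SEC and 13.36 and 13.28 in untreated SEC. Its SEC values overlapped, and the difference of -2.36 ± 0.12 came from macrophages. The mannose receptor Mrc1, which both cell types use, had a difference of -2.84 ± 0.08. The hyaluronan receptor Lyve1 did not pass, with a 95% interval from -0.53 to 0.01. Kdr, the main VEGF receptor, read between 7.44 and 7.54 on all 8 arrays, little above background, so its probe says nothing of SEC.

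The log2 summed level of the SEC list was 13.62 to 13.63 in DEN macrophages and 14.96 in untreated macrophages, and 17.53 to 17.57 in DEN SEC and 17.57 to 17.58 in untreated SEC. Many vascular and stromal genes fell in macrophage preparations too. Of 18 vascular endothelium markers 9 fell in macrophages, 4 rose and 5 had no call. The difference passed below 0 for 11 of them and above 0 for 2. The endothelial cadherin Cdh5 read 8.18 and 8.17 in DEN macrophages and 12.02 and 11.89 in untreated macrophages, against 12.48 and 12.54 in DEN SEC and 12.57 and 12.62 in untreated SEC. Its difference was -3.70 ± 0.12. Decorin, Dcn, a matrix proteoglycan of stellate cells and fibroblasts, had a difference of -4.20 ± 0.18. Of 18 stellate cell and fibroblast markers 11 passed below 0 and 1, Acta2, above. Their log2 sum was 12.18 to 12.25 in DEN macrophages and 14.29 to 14.33 in untreated macrophages, and 15.69 to 15.80 in DEN SEC and 15.82 to 15.92 in untreated SEC. The DEN macrophage preparations thus held lower summed levels of SEC and stromal markers. The part of endothelial and stromal transcripts in the other negative differences was not tested.

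A few changes arose in SEC. Wnt2, a factor of central-vein-side SEC that acts on hepatocytes, read 7.63 and 7.79 in DEN macrophages and 7.97 and 7.87 in untreated macrophages, against 10.49 and 10.52 in DEN SEC and 9.83 and 9.66 in untreated SEC. It rose by 0.76 in SEC (adjusted p = 0.0018), and the difference was -0.96 ± 0.15 (adjusted p = 0.000559). Bmp6, which controls iron through hepcidin, rose by 0.27 in SEC and was below background in DEN macrophages. Rspo3, a Wnt enhancer, and Hgf, the hepatocyte growth factor, had no call in SEC. Von Willebrand factor, Vwf, rose in both cell types, by 0.70 in macrophages and 0.97 in SEC, and its small difference of -0.27 ± 0.07 passed in the full fit and in 14 of 18 alternatives.

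Matrix genes were among the other SEC rises. Of 27 extracellular matrix genes 7 rose in SEC and none fell, and 16 passed the difference below 0 against 3 above. Mgp, which inhibits calcification, was below background in both untreated groups and rose at least 2.99-fold in SEC. The collagen Col3a1 rose by 0.74 in SEC and fell by 0.40 in macrophages. The proteases Mmp3 and Mmp2 rose in SEC too. Mmp3 read 7.992 and 7.999 in DEN SEC, at least 1.48-fold over untreated SEC, and was below background in both macrophage groups. Fibulin 2, Fbln2, a matrix protein, and Slit3, a guidance factor, showed the same pattern, at least 1.50-fold and 1.37-fold, although their second probes and those of Mmp3 made no call. Fibronectin, Fn1, was the reverse, with a rise of 2.37 in macrophages and of 0.69 in SEC (difference 1.68 ± 0.09). The macrophage proteases Mmp12 (2.50 ± 0.11) and Mmp13 (2.06 ± 0.10) and the protease inhibitor Slpi (3.24 ± 0.08) also passed above 0.

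Some responses were shared. In 175 genes both cell types passed in the same direction, 101 higher and 74 lower, and in 67 of these the difference did not pass and was under 0.5 in size. S100a9, a calcium-binding alarmin of neutrophils and monocytes, read 14.32 and 13.80 in DEN macrophages and 11.35 and 11.30 in untreated macrophages, against 11.94 and 11.97 in DEN SEC and 9.47 and 9.52 in untreated SEC. It rose by 2.74 in macrophages and 2.46 in SEC, and the 95% interval of the difference ran from -0.11 to 0.66. Its partner S100a8 rose by 1.99 and 2.25 (interval -0.55 to 0.03), unlike the 17 neutrophil markers that passed. For each a single DEN macrophage array decides the call: without the second the difference of S100a9 was 0.53 and passed, and without the first that of S100a8 was -0.42 and passed.

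Haptoglobin, Hp, which binds free haemoglobin, rose by 2.53 in macrophages and 2.43 in SEC, with an interval of the difference from -0.11 to 0.31. Both other Hp probes passed the difference above 0, at 0.42 and 0.55, so a shared response of Hp rests on the probe. Esm1, an endothelial proteoglycan linked to new vessels, rose by 1.81 in macrophages and 1.86 in SEC. It read 9.45 and 9.51 in DEN macrophages and 7.71 and 7.63 in untreated macrophages, against 10.42 and 10.44 in DEN SEC and 8.58 and 8.55 in untreated SEC. On the log2 scale its difference was -0.05 ± 0.07, but with background subtracted it was 1.30 and passed. Among genes lower in both cell types whose difference did not pass, the splicing protein Snrpd3 fell by 0.72 in macrophages and by 0.62 in SEC, and Actb, a cytoskeletal actin, fell by 0.63 and by 0.43. Of 4 other Actb probes, 1 passed the difference below 0 (-0.75) and the rest made no call. A p that misses the threshold does not show that these responses are equal.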

How the data were processed

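RNA of 12 cell preparations was measured on Illumina mouse bead arrays, with 2 arrays in each of 6 groups: macrophages, SEC and hepatocytes of DEN-treated and of untreated mice. The authors' deposited log2 values were used as given. Per the submitters' processing notes lumi was the tool; the sources used here give neither its version nor its transformation. Sorted values of any 2 arrays differ by at most 0.007 log2, so the arrays had been scaled to one another, and a shift common to all genes of a group could not be seen. A further 24 columns of a non-normalized table match no sample label and were not used.

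Of 45281 probes, 34885 have 1 gene symbol in the platform annotation, 18 have several and 10378 have none. Symbols were looked up in RefSeq's GRCm38.p6 table through Entrez identifiers for 34807 probes and through accessions for 11, and kept as given for 67. The lookup changed 10 symbols. Background on each array was the 95th percentile of 1504 odour and pheromone receptor probes. A probe stayed in if 1 or more of the 6 groups had both arrays above background, and the probe with the highest mean stood for its gene, which left 12473 genes.

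Group means of all 12 arrays were fitted with limma 3.58.1 in R 4.3.3 (6 residual degrees of freedom, 4.41 from the prior). The difference of responses and both DEN responses were contrasts of that fit, with Benjamini-Hochberg adjustment over all genes and a threshold of 0.05. Intervals are at 95%. A gene below background on both arrays of 1 group is given as a bound. On simulated data with 200 genes changed among 12473, the test of the difference recovered 74% of changes of 0.5 and 97% of changes of 1 log2 unit, and 3.93% of its calls were false. The changes were placed in DEN macrophages only, and noise was independent between arrays with 1 SD per gene for all groups. In the data the hepatocyte arrays spread more and far more genes passed, so these rates need not hold there. Same-numbered arrays of different groups had correlations of their replicate differences from -0.06 to 0.08, so no pairing by number was seen. With replicate differences this small, these values cannot tell whether same-numbered preparations came from the same mice.

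The members and lists were chosen with earlier results of these data known. Genes were named by rule: the largest differences in each direction, the largest opposite and shared changes, up to 4 of the largest passing members of each of 49 lists, and a set of genes named whatever their result. From that set Cd5l, Ly6c2, Sele and Mki67 were not measured. Acta2, Alas2, ATP6, Col3a1, COX2, Csf1, Hspa5, Isg15, Lyz2, Mgp, Mmp2, Nfe2l2, Nfkbia and Slc4a1 were named after their values were seen. Alternatives were other filters, normalizations, probe summaries, arrays in the fit, a replicate block, background subtraction and leaving out each array. Figures were drawn with matplotlib 3.10.9 in Python 3.11.15.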

Additional observations from a re-analysis of the deposited data

Results flagged for a closer look

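The DEN response ran in opposite directions in macrophages and SEC, and the difference itself passed, for 141 genes. Among those that rose in macrophages and fell in SEC, the named ones were Rab1a (a difference of 1.42), Gripap1 (1.22), ND4 (1.15), Prkd3 (1.09), Eef2 (1.01), Nfrkb (0.94), H2ac20 (0.84) and Axin1 (0.83). Among those that fell in macrophages and rose in SEC, they were ND4L (-5.21), Serpina1d (-4.16), Serpina1c (-4.11), Serpina1b (-4.07), Ttr (-3.86), Trf (-3.67), Mup5 (-3.63) and Mup20 (-2.99). The other probes of Rab1a, Nfrkb, Axin1 and Mup5 and 1 of 2 other Prkd3 probes made no call on the difference.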

How the results depend on the processing

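Of 4198 values of 235 named genes under the alternatives, 4124 kept their direction and side of the threshold, 56 lost and 17 gained a call, and 1 reversed: the difference of Esm1 was 1.30 with background subtracted. Of 210 named genes that passed, 198 passed under every alternative run and 12, including Il1b and Vwf, did not. The median of the CXC chemokines was -0.002 with background subtracted, and with a filter above background on all 8 arrays the medians of the pattern recognition and matrix protease lists were -0.124 and 0.058. In the fit on 8 arrays 5214 genes passed the difference and 6466 passed in macrophages, against 4111 and 5353. In SEC 840 passed (474 higher, 366 lower, against 319 and 124), and opposite changes numbered 249. Quantile normalization of these 8 arrays nearly repeats that fit, because the deposited values were already scaled to one another. It gave 840 and 249 again and is no separate check, though it is counted among the alternatives. The split in SEC was 398 higher and 69 lower with cyclic loess, and 425 and 74 with background subtracted; in macrophages it was 2721 and 2524 with cyclic loess, against 2323 and 3030. Leaving out 1 array gave 278 to 429 genes in SEC (229 to 321 higher, 46 to 108 lower), 4358 to 5121 in macrophages, 3426 to 3677 for the difference and 96 to 125 with opposite changes. An alternative chosen after seeing the data left out all genes highest in untreated hepatocytes and the globins, and kept the calls of the other 8441 genes. Among them 249 passed in SEC and 46 had opposite changes (21 and 25, against 22 and 119 of all genes). With the replicate block 4056 genes passed the difference, 5288 in macrophages, 425 in SEC and 131 with opposite changes. With background subtracted, 1035 and 1503 genes were at least 2-fold above and below 0, against 372 and 500, so the size of changes of dim genes depends on the scale. Other probes of named passing genes passed the same way in 101 of 145 cases and the opposite way in 0; 44 made no call. With 2 arrays a group, pooled DEN RNA and no separate measure of purity, cell makeup and level per cell cannot be told apart.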
